A study of Mus musculus with 7 samples.

Results

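The genes described here encode the carriers that move bile acids, sterols, phospholipids, drugs and other organic anions and cations across the membranes of liver cells. They are the ATP-binding cassette (ABC) transporters of subfamilies A to G, the organic anion transporting polypeptides (Slco genes), the organic anion, cation and carnitine carriers of the SLC22 family, the SLC10 bile acid carriers and the SLC47 multidrug and toxin extruders. The rule for members used the gene symbol and no measured value, and the probe set with the highest mean stood for each gene. By this rule 94 genes were found among 19938 genes that had a probe set with a single gene symbol. They comprise 48 ABC, 15 Slco, 23 Slc22a, 6 Slc10a and 2 Slc47a genes.

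mRNA was measured in whole liver of C57/BL6 male mice, given in the labels as 9 to 11 weeks of age (the methods of the study give a higher age at sacrifice), on Affymetrix Mouse Gene 1.0 ST arrays. The labels name no genetic alteration or drug, and all mice were kept under a cycle of light and darkness, with food offered only from ZT12 to ZT24 during the last 7 days, where ZT0 is lights on and ZT12 lights off (Zeitgeber time). Livers were taken every 4 h from ZT02 to ZT26, and the RNA of 5 livers was pooled in equal amounts for 1 array per time point. There were thus 7 arrays and no replicate arrays, and ZT26 falls at the clock hour of ZT02 on the next day. Signals are given in units, the natural-scale value of the deposited log2 signal, and the level of one probe set cannot be set against that of another as an amount of mRNA.

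As background, a hepatocyte takes up bile acids and other organic anions from blood through carriers of its basolateral membrane, chiefly the sodium-dependent carrier NTCP (Slc10a1) and the organic anion transporting polypeptides. It secretes bile through ATP-driven pumps of the canalicular membrane, which faces the bile duct system. The bile salt export pump (Abcb11), the phospholipid floppase MDR2 (Abcb4), the sterol pump formed by Abcg5 and Abcg8 and the conjugate pump MRP2 (Abcc2) supply the main constituents of bile, and several of their genes are known targets of the bile acid receptor FXR and the oxysterol receptor LXR.

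The median log2 signal of the arrays lay between 6.37 and 6.40 and no array was left out. The summed signal of 6 hepatocyte markers differed by 1.06-fold between the highest and the lowest array, and 5 of 6 markers of kidney and gut lay below the expression minimum of 85 units, while Fabp2, also made by the liver, lay above it. The summed signal of 7 Kupffer cell markers (resident liver macrophages) moved more, from 3739.9 units at ZT10 to 5863 units at ZT26, or 1.57-fold. The sums of bile duct cell markers (1.70-fold) and lymphocyte markers (1.51-fold) were likewise lowest at ZT10 and highest at ZT26. That of stellate cell markers was lowest at ZT10 (6475 units) and highest at ZT22 (7769.7 units). The sum of sinusoidal endothelium markers was lowest at ZT06 and that of erythroid markers at ZT18. Only Sox9 of the bile duct markers and only Alas2 of the erythroid markers lay above the minimum. Single markers did not all follow their sum, which weights the brightest probe sets most. The hepatocyte marker Pck1 ranged over 2.58-fold, from 3536 units at ZT18 to 9116 units at ZT10. Sox9 and Krt19 of the bile duct were lowest at ZT10, whereas Krt7 was highest there. Dcn and Lrat of stellate cells were lowest at ZT10, Col1a1 and Des at ZT14, Col3a1 at ZT18 and Reln at ZT06. Among Kupffer cell markers, Cd5l, Timd4 and Marco were lowest at ZT14, and Vsig4, Timd4 and Marco were highest at ZT22. None of the 7 Kupffer cell markers was at 0, and Marco alone lay below the minimum. In RNA from whole liver, fewer cells of a type and less RNA per cell cannot be told apart.

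A mean signal above 85 units was found for 56 of the 94 genes (59.6%), as compared to 55.0% of all 19938 genes. These were 34 ABC genes, 6 Slco genes, 11 Slc22a genes, 4 Slc10a genes and 1 Slc47a gene. Their means ran from 87.0 units for Abcg3 to 10224 units for Slc10a1. Next above the minimum stood Abcc5 at 106 units and Slc22a13b at 107 units. Just below it were Abcc1 at 82.8, Abcb9 at 81.9 and Abcg4 at 81.2 units, and Abcb9 and Abcg4 each had an array above 85 units.

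Of the 38 genes at or below the minimum, 28 also lay at or below 43 units, a level that the methods of the study treat as background. They include Slc22a2 (34.4 units) and Slc47a2 (36.0 units), the cation carriers best known from kidney, as well as Slco1c1 (26.7 units), a thyroid hormone carrier of the brain. The kidney anion exchangers Slc22a6 and Slc22a8 had means of 58.5 and 58.8 units. Abcb1b, a drug pump related to Abcb1a, had a mean of 37.3 units. The highest signal that any of the 38 genes reached on an array was 88.2 units, and their profiles are not described further.

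The 7 log2 values of every probe set were fitted in limma by a cosine of 24 h, and a gene was called rhythmic where the Benjamini-Hochberg adjusted p over 12076 probe sets was under 0.05. The p-value measures the scatter of 7 pools around the curve, not the spread between animals or between replicate pools. The amplitude is the distance from mean to peak of the fitted curve in log2 with its standard error (SE), and the fitted fold is that from trough to peak.

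Of the 56 genes, 4 were called rhythmic (7.14%), against 4.54% of the 10966 genes tested. These were Abca8b, Abcb11 and Abca2, with fitted peaks in the light (3 genes, 5.36% against 2.1% of all), and Slc22a5, with its peak in the dark (1 gene, 1.79% against 2.44%). An unadjusted p under 0.05 was reached by 16 genes (28.6%), as compared to 26.1% of all genes, so that the share of transporter genes was near the background in this respect. At an adjusted p under 0.1 there were 12 genes (21.4% against 12.7%). The methods of the study set an unadjusted p under 0.25 from a Fisher test and a fold above 1.5, in polymerase or mRNA signals. These limits were applied here to mRNA alone, with p from an ordinary F-test and the fold as highest over lowest array. They also selected 12 genes (21.4% against 13.8%). No more than 2 transporter genes were called when any single array was left out, and none without ZT02 or without ZT14, where limma still gave 14 and 18 genes an unadjusted p under 0.05.

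The amplitudes of most carriers were small. The median amplitude of the 56 genes was 0.10 in log2 (quartiles 0.06 and 0.21), against 0.09 for all genes tested. The ratio of the highest to the lowest array had a median of 1.24, against 1.25 for all genes, and ran from 1.05 for the sterol exporter Abcg1 to 4.68 for Abcg8. It was above 1.5 in 13 genes (23.2%, against 16.6% of all), below 1.2 in 21 and above 2 in 5, namely Abcg8, Abcg5, Abcd2, Abca8b and Abcb1a. Of these 5 genes, only Abca8b was called.

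**Figure D1:**
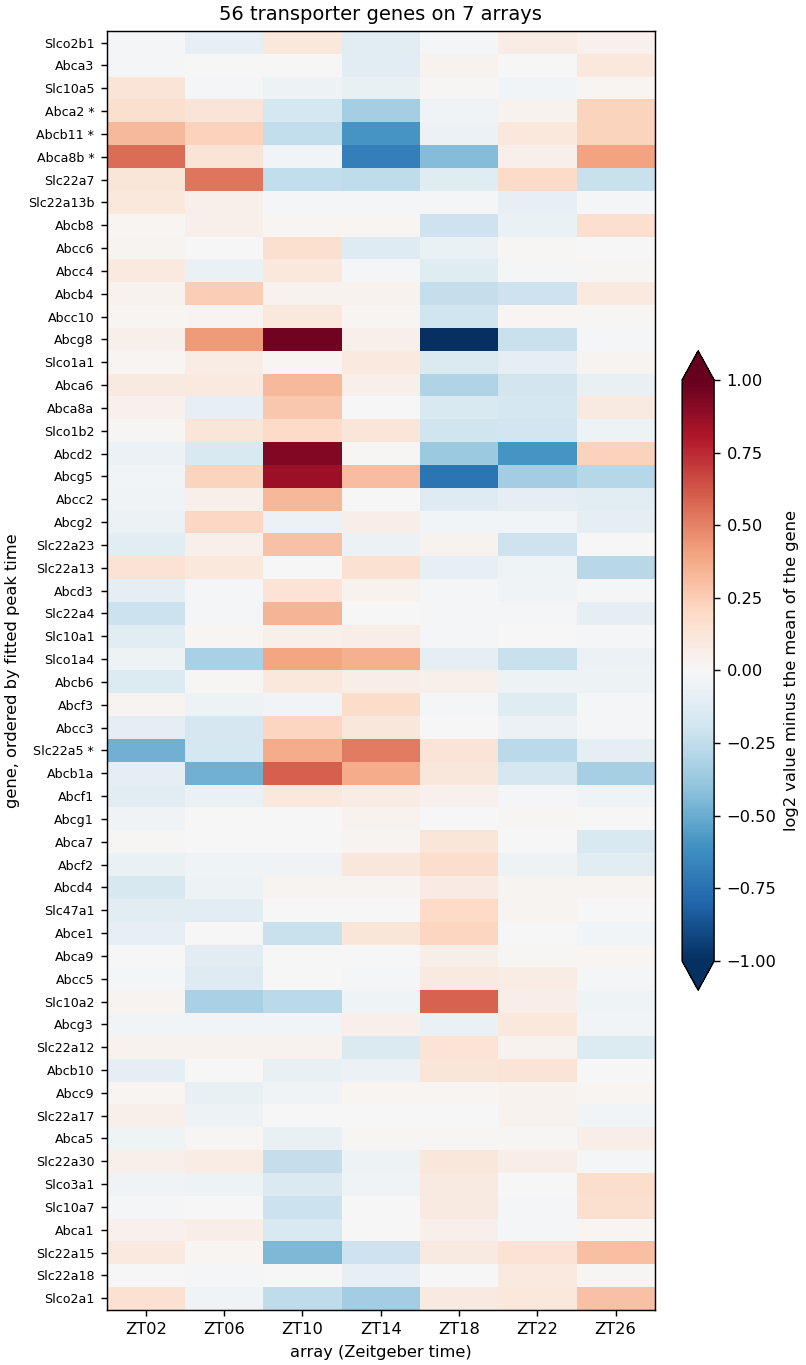
Log2 signal of the 56 transporter genes above 85 units on each of the 7 arrays, minus the mean of the gene, with genes ordered by fitted peak time and an asterisk at the 4 genes with an adjusted p under 0.05 (colours saturate 1 log2 unit above and below the mean). Most rows are pale, and the darkest cells are those of Abcg8, Abcg5 and Abcd2 at ZT10 and of Abcg8 at ZT18.

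Fitted peaks were spread over the day, 26 of them in the light and 30 in the dark phase. The array of ZT10, shortly before lights off and before food was offered, stood out by its number of maxima. It held the highest value of 19 of the 56 genes (33.9%), as compared to 18.1% of all genes, and the count was 19 as well after centring the arrays on their medians and after quantile normalization. Among these 19 were Abcg8, Abcg5, Abcd2, Abcb1a, Slco1a4 and Abca6, whose highest and lowest arrays differed by more than 1.5-fold. The marker sums of Kupffer, bile duct and stellate cells and lymphocytes had their lowest values on this array, though not every marker did. Of the bile duct markers, Sox9 alone lay above the minimum. The sums of sinusoidal endothelium and erythroid markers were lowest on other arrays. The part of cell types in these maxima was not tested.

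**Figure D2:**
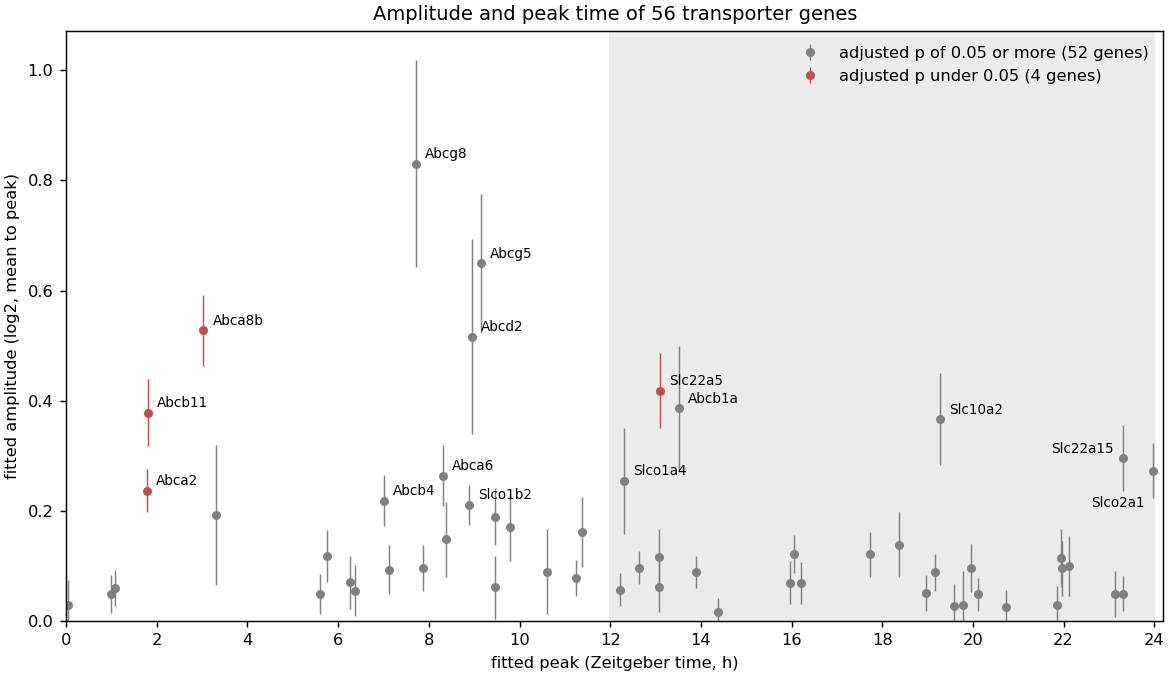
Fitted amplitude in log2 (mean to peak, bars are 1 SE) against fitted peak in Zeitgeber time for the 56 genes, with the dark phase in grey and the 4 called genes in red. Abcg8 and Abcg5 lie highest, with peaks at 7.72 and 9.15 h and wide bars, whereas the called genes Abcb11, Abca2 and Abca8b peak between 1.79 and 3.03 h and Slc22a5 peaks at 13.1 h.

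The exporters of the canalicular membrane include the genes with the widest ranges, Abcg8 and Abcg5. Of 9 genes listed in this role, 8 lay above 85 units, 1 was called (Abcb11, against 4.54% of all genes) and 6 had an unadjusted p under 0.05 (against 26.1% of all genes). Their median amplitude was 0.30 in log2, against 0.09 for all genes, and that of the 3 cation and carnitine SLC22 genes was 0.30 as well.

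Abcb11, the pump that secretes bile salts into bile, gave 6064 units at ZT02, 5693 at ZT06, 4082 at ZT10, 3220.3 at ZT14, 4659.8 at ZT18, 5215 at ZT22 and 5648 at ZT26. It was thus highest around lights on and lowest at the start of the dark phase, and both arrays of the same clock hour were high. The fitted amplitude was 0.38 in log2 (SE 0.06, n = 7 arrays), a fold of 1.69, with the peak at ZT1.81 (SE 0.698 h) and an adjusted p of 0.0448 from limma. Leaving out 1 array kept the call only without ZT18 (adjusted p 0.0411), and the adjusted p was highest, 0.154, without ZT14, the lowest array.

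The 250 bases before the annotated start of Abcb11 are shown because this bile salt pump was the canalicular gene that passed the test. They come from RefSeq (GRCm38.p6) at chr2:69342617-69342866, minus strand, and read 5′ to 3′ in the direction of the gene. Capitals mark TGACCTA, the reverse complement of TAGGTCA, a half-site of nuclear receptors, which begins 56 bases before the start. Only this exact match is marked, and looser sites around it were not searched for. TAGGTCA was present on either strand in 2 of 54 windows of transporter genes (3.7%) and in 2.61% of 32851 windows of all genes.
Abcb11: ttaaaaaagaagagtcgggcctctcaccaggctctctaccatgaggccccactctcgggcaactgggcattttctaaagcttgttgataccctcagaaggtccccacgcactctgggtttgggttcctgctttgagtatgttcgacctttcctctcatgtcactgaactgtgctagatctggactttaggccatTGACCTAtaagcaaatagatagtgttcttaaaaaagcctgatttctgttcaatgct

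Abcg5 and Abcg8 are the partners that form the pump that secretes cholesterol and plant sterols into bile. They shared their highest and lowest arrays, whereas the second highest was ZT14 for Abcg5 and ZT06 for Abcg8. Abcg5 gave 2288 units at ZT02, 2717 at ZT06, 4205 at ZT10, 2886 at ZT14, 1405 at ZT18, 1834 at ZT22 and 1915 at ZT26. Abcg8 gave 1152 units at ZT02, 1489.6 at ZT06, 2166 at ZT10, 1150.2 at ZT14, 463 at ZT18, 953 at ZT22 and 1098 at ZT26. Both were highest at ZT10 and lowest at ZT18, in the middle of the feeding period. The highest array exceeded the lowest by 2.99-fold for Abcg5 and by 4.68-fold for Abcg8.

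Neither gene passed the test. The fitted amplitude of Abcg5 was 0.65 (SE 0.13) with a peak at ZT9.15 and an adjusted p of 0.0663 from limma. That of Abcg8 was 0.83 (SE 0.19) with a peak at ZT7.72 and an adjusted p of 0.0944. No fit that left out 1 array called either gene, and the amplitude of Abcg8 then ranged from 0.55 without ZT18 to 1.07 without ZT22.

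The starts of these 2 genes lie head to head on chromosome 17, Abcg5 on the minus strand from base 84683011 and Abcg8 on the plus strand from base 84683121 (RefSeq, GRCm38.p6), and RefSeq lists a further start for Abcg8. The 109 bases between them are shown because they separate the genes with the widest swings. They are 45.9% G or C, and are written on the plus strand of chr17:84683012-84683120. There are no capitals because 0 of the 9 motifs searched had an exact match in them on either strand.
Abcg5 to Abcg8 interval: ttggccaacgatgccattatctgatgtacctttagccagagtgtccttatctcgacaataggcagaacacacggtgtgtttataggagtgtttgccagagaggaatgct

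Abcb4, which carries phosphatidylcholine into bile, gave 2534 units at ZT02, 2932 at ZT06, 2543 at ZT10, 2534 at ZT14, 2094 at ZT18, 2146 at ZT22 and 2647 at ZT26. The arrays from ZT02 to ZT14 lay above those of ZT18 and ZT22, with an amplitude of 0.22 (SE 0.05) and an adjusted p of 0.0791 from limma. Abcc2, the pump for glucuronide and glutathione conjugates, gave 5729, 6094, 7382, 5865, 5374, 5488 and 5431 units from ZT02 to ZT26. Its array of ZT10 stood above the other 6, which lay close together, and the adjusted p was 0.14.

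The drug pump Abcb1a was a dimmer probe set, with 145, 111, 235, 201, 168, 139 and 124 units from ZT02 to ZT26. It was highest at ZT10 and lowest at ZT06, a 2.11-fold range between neighbouring arrays, with an adjusted p of 0.163 from limma. Whether its probes share signal with the related Abcb1b was not tested. The breast cancer resistance protein Abcg2 varied by 1.23-fold (adjusted p 0.745). The extruder of organic cations Slc47a1 varied by 1.25-fold (adjusted p 0.211).

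**Figure D3:**
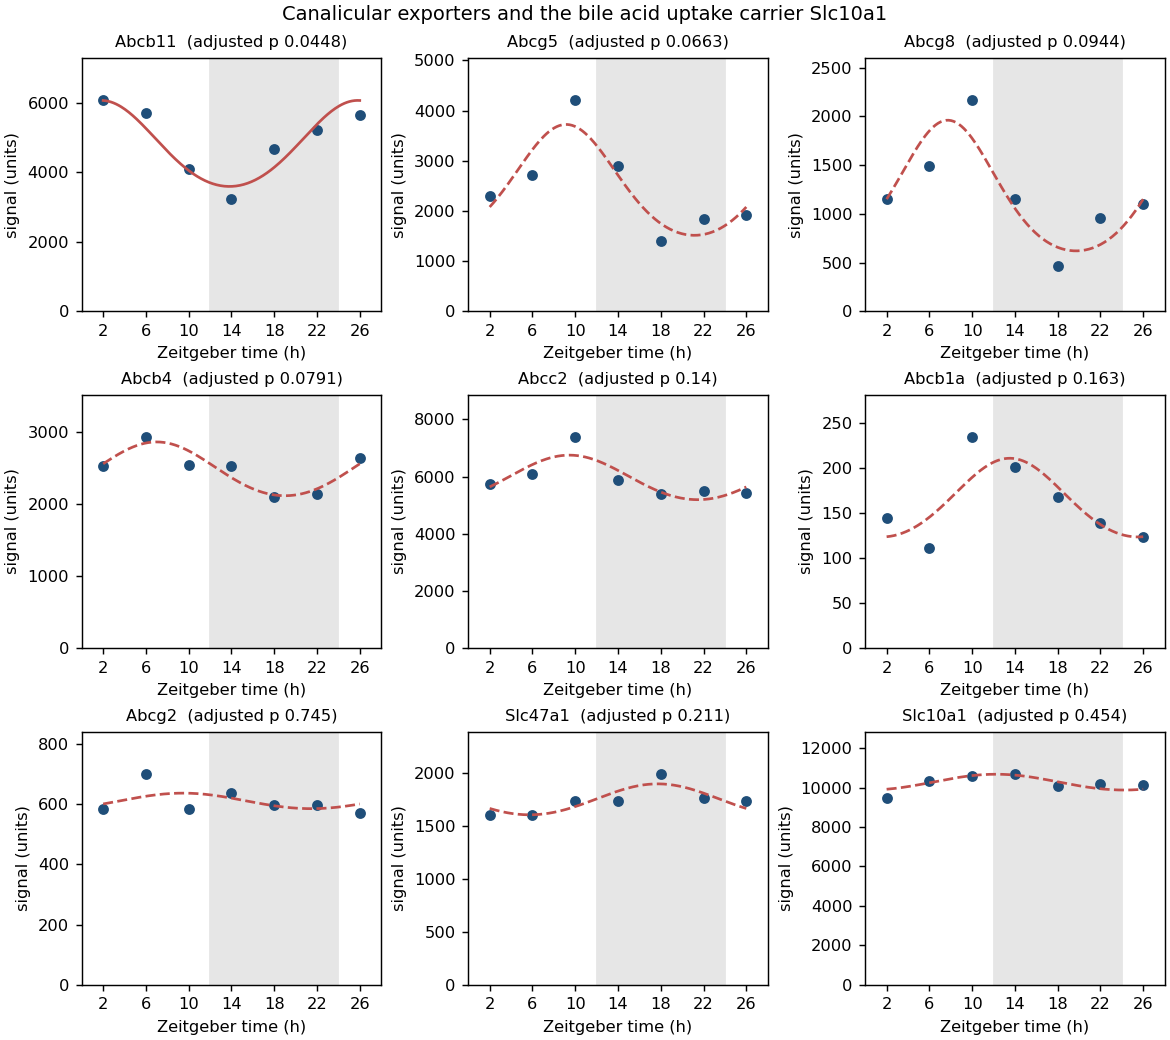
Signal in units (linear axis from 0) against Zeitgeber time for 8 canalicular exporters and the uptake carrier Slc10a1, where points are the 7 arrays, the grey area is the dark phase and the curve is the fitted cosine, solid where called and dashed where not. Abcb11 is lowest at ZT14, Abcg5 and Abcg8 are highest at ZT10 and lowest at ZT18, and Slc10a1 stays between 9489 and 10702 units.

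On the uptake side, 4 Slc10a genes and 6 Slco genes lay above the minimum. None of them passed the test, against 4.54% of all genes. An unadjusted p under 0.05 was reached by 1 and 2 of them, against 26.1% of all genes. Slc10a1, the main bile acid uptake carrier of hepatocytes, gave 9489, 10331, 10595, 10702, 10099.7, 10201 and 10150.2 units from ZT02 to ZT26. Its highest and lowest arrays differed by 1.13-fold and its amplitude was 0.06 in log2 (SE 0.03, adjusted p 0.454 from limma), whereas the amplitude of the bile salt pump Abcb11 was 0.38. The difference between the 2 amplitudes was not tested.

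Slc10a2, the carrier of ileum and bile duct cells that recovers bile acids, had 350.5, 274, 286, 335, 517, 360.3 and 335 units. The array of ZT18 stood above the others, its amplitude was 0.37 (SE 0.08) and the adjusted p was 0.0951 from limma. The amplitude was 0.23 without ZT18. Of 4 markers of bile duct cells with a probe set, Sox9 alone lay above the minimum, and their summed signal ran from 389 units at ZT10 to 661 units at ZT26, with 521 units at ZT18. Slc10a5 varied by 1.15-fold and Slc10a7, a member of the family not known to carry bile acids, by 1.30-fold.

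Among the organic anion transporting polypeptides, Slco1b2 came nearest to the threshold of the test and was chosen for description after its values were seen. This hepatocyte carrier of bile acids, bilirubin conjugates and drugs gave 2822 units at ZT02, 3042 at ZT06, 3186 at ZT10, 3035 at ZT14, 2426 at ZT18, 2443 at ZT22 and 2689 at ZT26. The 3 arrays from ZT06 to ZT14 were high and the ones of ZT18 and ZT22 low. Its amplitude was 0.21 (SE 0.04) with a peak at ZT8.89 and an adjusted p of 0.0552 from limma.

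Slco2a1, a prostaglandin carrier, gave 2051, 1807, 1551, 1447, 1967, 1981 and 2258 units from ZT02 to ZT26. It was low at ZT10 and ZT14 and highest at ZT26, with an amplitude of 0.27 (SE 0.05), a peak at ZT24.0 and an adjusted p of 0.0571 from limma. The sums of Kupffer cell and of lymphocyte markers were likewise low at ZT10 and ZT14 and highest at ZT26. Of the 6 Kupffer cell markers above the minimum, 3 (C1qb, Clec4f and Vsig4) were called, against 4.54% of all genes. C1qa, Cd5l and Timd4 were not called, and Vsig4 and Timd4 were highest at ZT22. The part of these cell types in the profile of Slco2a1 was not tested.

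Slco1a4 gave 1142, 943, 1551, 1509, 1113, 1012 and 1136 units. It was high at ZT10 and ZT14 alone, with an adjusted p of 0.265 from limma that became 0.0493 without ZT06. Slco1a1, whose probes may share signal with its close relatives in the Slco1a cluster, stayed between 3620.2 and 4282 units (adjusted p 0.336). Slco2b1 varied by 1.17-fold (adjusted p 0.908) and Slco3a1 by 1.25-fold.

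Of the 7 anion and other SLC22 genes above the minimum, none passed the test, against 4.54% of all genes. None had an unadjusted p under 0.05 from limma, against 26.1% of all genes. Slc22a7, the hepatic carrier OAT2, had the widest range, with 622, 827, 483, 479, 524, 651 and 490.2 units. A single high array at ZT06 and a ZT26 value below that of ZT02 did not follow a cosine (adjusted p 0.576). Slc22a23 varied by 1.42-fold (adjusted p 0.238). Slc22a30 varied by 1.27-fold (adjusted p 0.364), and its signal may be shared with the near-identical copies beside it on chromosome 19.

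The cation and carnitine branch of SLC22 had 3 genes above the minimum, of which Slc22a5 was called, against 4.54% of all genes. Slc22a5 (OCTN2), the high-affinity carnitine carrier that supplies fatty acid oxidation, gave 209 units at ZT02, 257 at ZT06, 377 at ZT10, 417 at ZT14, 318 at ZT18, 241 at ZT22 and 272 at ZT26. It rose from ZT02 to ZT14 and was lower again by ZT22. The amplitude was 0.42 (SE 0.07), a fold of 1.79, with the peak at ZT13.1 (SE 0.695 h) and an adjusted p of 0.0455 from limma.

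Of the single-array omissions, only that of ZT26 left Slc22a5 under the threshold (adjusted p 0.0428), and the adjusted p reached 0.182 without ZT14. Its values at ZT02 and ZT26, 1 day apart, differed by 0.38 in log2, the second largest such gap of the 56 genes. Slc22a5 was the gene that stayed called when a linear drift was added to the cosine.

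Slc22a4, a carrier of ergothioneine, lies near Slc22a5 on chromosome 11 with Slc22a21 between them. It gave 193, 221, 283, 223, 221, 221 and 209.6 units, with only ZT10 apart from the rest, and an adjusted p of 0.288 from limma. The deposited value was the same at ZT06, ZT18 and ZT22. Slc22a21, another carnitine carrier, had a mean of 56.2 units and was not tested. Slc22a15 gave 289.7, 274, 198, 235, 287, 299 and 333 units, with its low at ZT10 and its high at ZT26. The sums of Kupffer cell, bile duct cell and lymphocyte markers had their low and high on the same arrays, and their part was not tested. The amplitude of Slc22a15 was 0.30 (SE 0.06) and its adjusted p 0.0726 from limma.

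**Figure D4:**
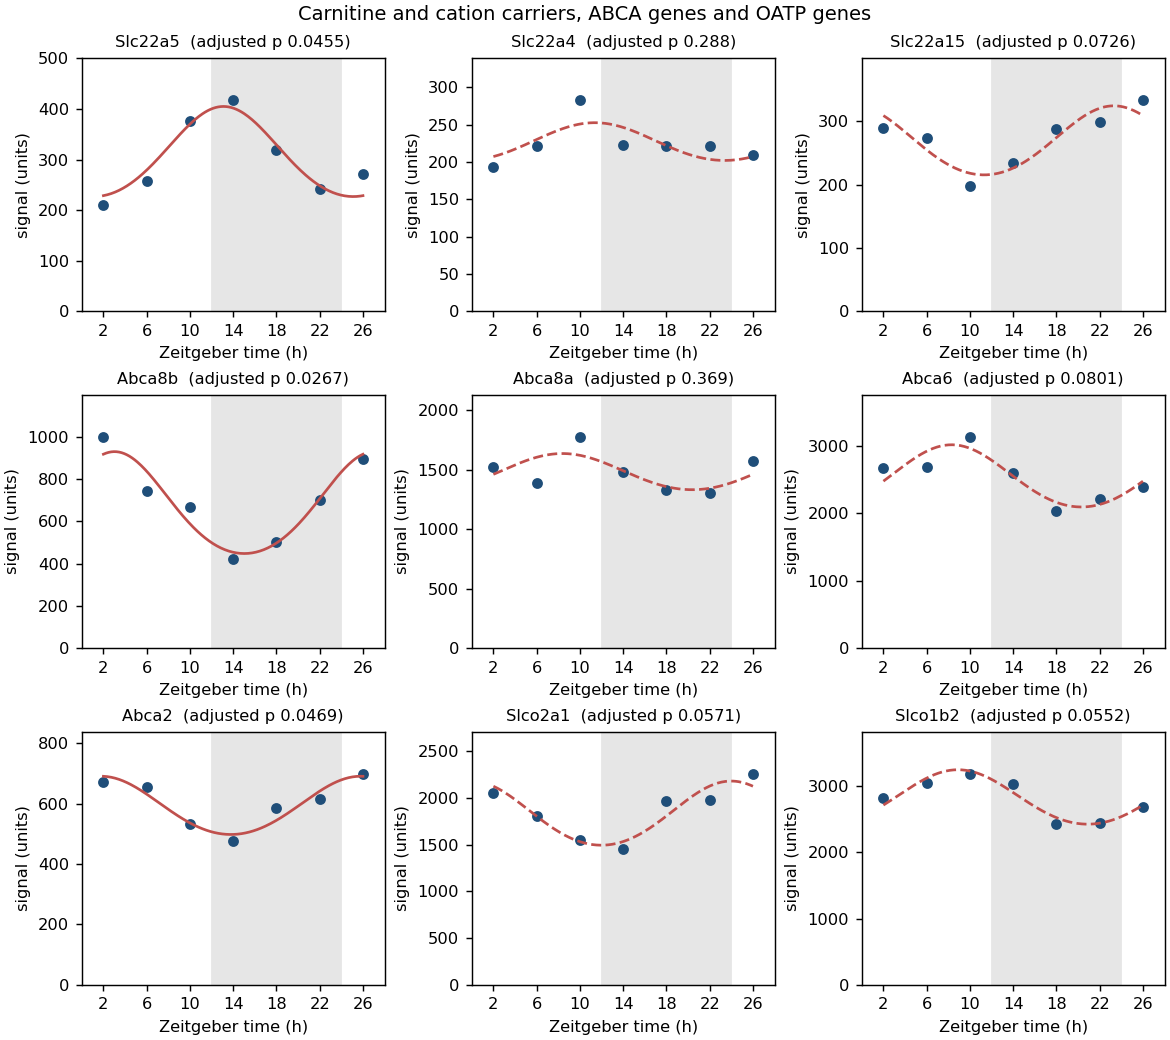
Signal in units (linear axis from 0) against Zeitgeber time for 3 cation and carnitine carriers, 4 ABCA genes and 2 Slco genes, where points are the 7 arrays, the grey area is the dark phase and the curve is the fitted cosine, solid where called and dashed where not. Slc22a5 is highest at ZT14, the array on which Abca8b and Abca2 are lowest.

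The lipid and sterol ABC transporters of subfamilies A and G outside the canaliculus numbered 15, of which 11 lay above the minimum and 2 (Abca8b and Abca2) were called, against 4.54% of all genes. Abca8b, a membrane protein related to the lipid exporter Abca1, gave 999 units at ZT02, 743 at ZT06, 666 at ZT10, 422 at ZT14, 503 at ZT18, 703 at ZT22 and 895 at ZT26. It fell from ZT02 to ZT14 and was high again at ZT26. The amplitude was 0.53 (SE 0.06), a fold of 2.08, with the peak at ZT3.03 (SE 0.52 h) and an adjusted p of 0.0267 from limma, the lowest of the 56 genes. The call was kept without ZT06, ZT10 or ZT22 and lost without ZT02, ZT14, ZT18 or ZT26, with an adjusted p of up to 0.12 without ZT14.

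Abca8b lies in a row of ABCA genes on chromosome 11 together with Abca8a, Abca9, Abca6 and Abca5. Abca8a, its closest relative, gave 1520.4, 1390.4, 1775, 1479, 1328, 1303.5 and 1571 units and was highest at ZT10 (adjusted p 0.369 from limma). Abca6 gave 2672, 2688, 3133, 2596, 2032, 2205 and 2386 units, with the high at ZT10 and the low at ZT18, an amplitude of 0.26 (SE 0.06) and an adjusted p of 0.0801. Abca9 stayed between 105 and 118 units and Abca5 between 151 and 167 units. The fitted peaks were at ZT3.03 for Abca8b, ZT8.38 for Abca8a and ZT8.31 for Abca6, and the differences between neighbours were not tested.

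Stretches of 30 bases around the sequence CACGTG, the E-box that clock factors and other basic helix-loop-helix proteins can bind, are shown for Abca8b and Abca8a because these neighbours both hold it and only the first was called. Capitals mark CACGTG, which reads alike on both strands and begins at base 19 counted from the start of Abca8b and 136 bases before that of Abca8a. The stretches come from RefSeq (GRCm38.p6) on the minus strand at chr11:109995810-109995839 and chr11:110096056-110096085.
Abca8b: gccatgcgcggtCACGTGtccgtggtgttt
Abca8a: ttcgagaatggtCACGTGaatacagtgctc

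Promoter windows of 300 bases, from 250 before the start to 50 after it, were at hand for 44 of the 56 genes (54 windows). CACGTG occurred in 6 of the 54 (11.1%), in Abca1, Abca8a, Abca8b, Abcc4, Abcf1 and Slc22a4, and in 7.15% of all 32851 windows. Of these 6 genes, Abca8b alone was called, against 7.14% of the 56 transporter genes and 4.54% of all genes. A link between the motif and the calls was not tested. The D-box TTATGTAA was in none of the 54 windows and in 0.938% of all windows. The other motifs searched on both strands were the noncanonical E-box CACGTT (1 window, 1.85%, against 4.68%), the half-site TGGGTCA (2 windows, 3.7%, against 3.98%) and the HNF1 core GTTAAT (2 windows, 3.7%, against 7.1%). Receptor sites were built from AGGTCA, a core that TAGGTCA also holds. They were a direct repeat 1 base apart, an inverted repeat 1 base apart and a direct repeat 4 bases apart. Exact matches to them were in none of the 54 windows and in 0.0396%, 0.00913% and 0.0152% of all windows. For these and the other motifs, sites that differ at any fixed base were not counted, so their absence was not shown.

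Abca2, a lipid transporter of lysosomes that is abundant in brain, gave 672, 656, 532, 475, 585, 616 and 699 units from ZT02 to ZT26. It was lowest at ZT14 and highest at the 2 arrays of the same clock hour, ZT02 and ZT26. The amplitude was 0.24 (SE 0.04), a fold of 1.39, with the peak at ZT1.79 and an adjusted p of 0.0469 from limma. Leaving out 1 array kept the call only without ZT18 (adjusted p 0.0450), and the adjusted p was 0.179 without ZT14. The Kupffer cell sum, 3739.9 to 5863 units, was also low at ZT10 and ZT14 and highest at ZT26. So was the lymphocyte sum, 416 to 630 units. The part of these cell types in this profile was not tested.

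The exporters of cholesterol to lipoproteins varied little. Abca1, which loads lipid-poor apolipoprotein A-I, ranged over 1.17-fold (adjusted p 0.703 from limma), and Abcg1, which exports sterol to mature particles, over 1.05-fold (adjusted p 0.895), the smallest range of the 56 genes.

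**Figure D5:**
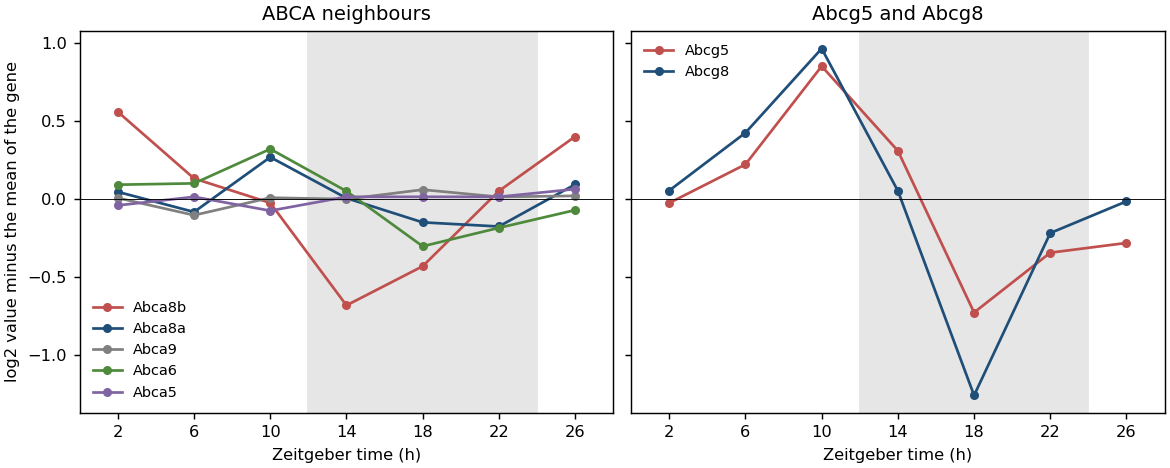
Log2 signal minus the mean of the gene against Zeitgeber time for 5 ABCA genes that are neighbours on chromosome 11 (left) and for the divergent pair Abcg5 and Abcg8 on chromosome 17 (right), with the dark phase in grey and points for the 7 arrays. Abca8b is highest at ZT02 and lowest at ZT14 while its neighbours Abca9 and Abca5 stay near 0, and Abcg5 and Abcg8 share their highest and lowest arrays.

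Above the minimum lay 5 basolateral ABCC exporters, 3 peroxisomal ABCD transporters, 3 mitochondrial and lysosomal ABCB transporters and 4 ABCE and ABCF proteins. None of them was called, against 4.54% of all genes. An unadjusted p under 0.05 was reached by 0, 0, 1 and 1 of them, against 26.1% of all genes. The groups are too small to be set apart from these shares. Abcc3 (MRP3), which returns conjugates to blood, ranged over 1.30-fold (adjusted p 0.332 from limma), with its highest value of 3240.0 units at ZT10. Abcc10 ranged over 1.23-fold (adjusted p 0.392).

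Abcd2, which imports very long chain fatty acids into peroxisomes, had the widest range of these groups, with 284, 265, 562, 298, 229, 196 and 347 units from ZT02 to ZT26. The array of ZT10 exceeded the next highest by 1.62-fold, whereas the other 6 arrays lay between 196 and 347 units. The amplitude was 0.52 (SE 0.18) with an adjusted p of 0.224 from limma, and 0.26 without ZT10. Its relative Abcd3 (PMP70) stayed within 1.18-fold (adjusted p 0.325).

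In the mitochondrial and lysosomal group, the porphyrin transporter Abcb6 ranged over 1.18-fold (adjusted p 0.175 from limma) and Abcb8 over 1.29-fold (adjusted p 0.29). Among the proteins without a membrane domain, Abce1, a ribosome recycling factor, ranged over 1.35-fold (adjusted p 0.331) with its highest array at ZT18, and Abcf2 over 1.22-fold (adjusted p 0.151), likewise highest at ZT18. The sulfonylurea receptor Abcc9 ranged over 1.08-fold (adjusted p 0.547).

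Of 21 regulators and partners of these carriers with a probe set, such as nuclear receptors and bile acid signalling genes, 18 lay above the minimum and 2 were called, against 4.54% of all genes. Nr0b2 (SHP), a repressor induced by FXR, gave 1164, 923, 570.1, 426, 671, 936 and 1097 units and had its fitted peak at ZT1.57 (amplitude 0.66, SE 0.05, adjusted p 0.00937 from limma). Abcb11 shared its highest array, ZT02, and its lowest, ZT14. Nr1h4, the gene of FXR, was added after its values were seen. It was lowest at ZT02 (1054 units) and highest at ZT10 (1553 units). Its fitted peak was at ZT13.1, with an adjusted p of 0.0608 from limma. A link of either gene to Abcb11 was not tested. Ppara, the fatty acid receptor, gave 1870.2, 2632, 3432, 2727, 2085, 1793 and 1969 units, with its peak at ZT10.5 (amplitude 0.46, SE 0.04, adjusted p 0.0134). Both calls were lost without ZT02 (adjusted p 0.0633).

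The repeat of the clock hour after 1 day gives the nearest measure of error in these data. The values of ZT26 and ZT02 differed by a median of 0.08 in log2 over the 56 genes, against 0.09 for all genes. ZT26 was the higher in 28 genes and the lower in 25, and the deposited values were equal for Abcc9, Abcg3 and Abcc5. Of the 56 genes, 22 (39.3%) had the same deposited value on more than 1 array, against 47.3% of all genes tested. The effect of such repeats on the fits was not tested. The gap between ZT26 and ZT02 was above 0.3 in 3 genes, namely Slc22a13 (-0.42, ZT26 minus ZT02), Slc22a5 (0.38) and Slc22a7 (-0.34). For Slc22a13, a urate and nicotinate carrier, this gap exceeded its fitted amplitude of 0.09. For Slc22a7 it exceeded the amplitude of 0.19, and for the called gene Slc22a5 it came close to the amplitude of 0.42. In the called genes Abca8b, Abcb11 and Abca2 the gaps were -0.16, -0.10 and 0.06, against amplitudes of 0.53, 0.38 and 0.24. For Abcg5 the gap was -0.26, smaller than its amplitude of 0.65.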

How the data were processed

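Liver RNA pools were hybridised to 7 Mouse Gene 1.0 ST arrays (Affymetrix). The authors deposited log2 signals, which according to the submitters' processing notes were produced by RMA in Affymetrix Expression Console 1.1.2637.26569, so that background, normalization and probe summary were settled before deposit. Of 35556 probe sets, 21789 had 1 gene symbol in the platform annotation, 1621 had several and 12146 had none. Some transporter genes are not reported here.

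Cosine and sine terms of 24 h were fitted with limma 3.58.1 in R 4.3.3 (lmFit, eBayes, moderated F-test, 4 residual degrees of freedom) and checked on simulated data. P-values were adjusted over the 12076 single-symbol probe sets with a mean above 85 units, the minimum in the methods of the study. Promoter windows came from RefSeq tables. Alternatives changed the minimum, the test, the scaling, the scale, the use of ZT26, a drift term and each array in turn.

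Genes were named where called, for the largest amplitudes of each role list (up to 4, or up to 2 where none was called), for the 5 highest means, for the 3 means on each side of 85 units, for the bile constituents, and for called regulators. Other genes were described outside these criteria, among them Abca1, Abcg1, Abcg2, Abca5, Abca9, Slco2b1, Slco3a1, Slc22a30, Slc10a5 and Slc22a13. The members and lists were chosen with earlier results of these data known. The number of arrays limits the precision.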

Additional observations from a re-analysis of the deposited data

How the results depend on the processing

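The count of 56 transporter genes above the minimum stayed between 55 and 58 with other definitions of the mean and with quantile normalization. The count of 4 rhythmic transporter genes was 4 with centred arrays and on the natural scale, and the 4 genes were the same. It was 6 with a minimum of 170 units, with a prior spread that follows the mean, and with quantile normalization, each including the 4 and adding Slco2a1, with Slco1b2 in the first pair of settings and Slc22a15 in the last. It was 0 with no minimum, 0 with the ordinary F-test, which called 0 of all 12076 probe sets, and 0 with the mean of ZT02 and ZT26 as 1 point, where 18, 13 and 13 transporter genes had an unadjusted p under 0.05. It was 1 with a linear drift, 0 to 2 when 1 array was left out and 12 at an adjusted p under 0.1. By the thresholds of the methods (p under 0.25, here from the ordinary F-test, and fold above 1.5) it was also 12. Over all probe sets, the count of 540 became 57 with no minimum, 93 with 6 points, 98 with the drift, 1509 at an adjusted p under 0.1, 1645 by the thresholds of the methods and 13 to 312 with 1 array left out. The 2 rhythmic regulators were 5 with the minimum of 170 units, 0 with the ordinary F-test (6 at an unadjusted p under 0.05), 4 with centred arrays, 5 with quantile normalization and 0 to 2 when 1 array was left out. Over the fits of single named genes, 437 kept their side of the threshold, 35 lost a call and 5 gained one, and no called gene moved its peak by more than 6 h. No paired analysis was possible because each time point has 1 array.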
